A study of Mus musculus with 9 samples.

Results

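Ribosomal protein genes were followed through the prenatal growth of the mouse olfactory bulb, which relays smell information from the nose to the cortex. The members were the genes whose only symbol in the array annotation begins with Rpl, Rps, Mrpl or Mrps followed by a digit, and whose probe set reached a log2 level of 5 on 2 or more of 9 arrays. Of 130 such symbols, 124 passed, among 10864 genes tested in all. By their symbols, 42 were counted as cytosolic ribosomal proteins (22 Rpl and 20 Rps) and 76 as mitochondrial ones (47 Mrpl and 29 Mrps). Whether the product of each is part of a ribosome was not checked. A further 6 genes share the prefix and were set aside as not coding for ribosomal proteins. Those 6 were the S6 kinase genes Rps6ka3, Rps6ka5, Rps6ka6, Rps6kb2 and Rps6kc1, and Rps19bp1. The second-highest reading of the lowest members inside the threshold was 6.09 for Mrpl54 and 6.40 for Mrpl14, and that of the nearest symbols outside it was 4.55 for Rps6kl1 and 4.47 for the pseudogene Rps15a-ps6. The other symbols left out were Rps27, Rpl39l, Rpl3l and Rps16, whose second-highest readings lay between 2.05 and 2.90.

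Bulbs of CD1 mice were dissected at 9 ages, daily between embryonic days 11 and 18 (E11 to E18) and on the day of birth (P0), with no treatment or genetic change named in the labels. Each age is 1 array of 1 sample, so no age has a replicate, and the error of a trend is the scatter of the 9 arrays around a line in age. Values are log2 levels per probe set. A slope is the change in log2 units per day, printed with its standard error (n = 9 arrays), and a gene is said to have risen or fallen where limma's test of the slope gave an adjusted p under 0.05. Since the samples were whole bulbs, fewer cells of a type and less RNA per cell cannot be told apart.

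The cytosolic ribosome translates the mRNAs made in the nucleus. Its large subunit carries the RPL proteins and its small subunit the RPS proteins, and both are put together with ribosomal RNA in the nucleolus. The mitochondrial ribosome has MRPL and MRPS proteins, all encoded in the nucleus and imported, and translates the few mRNAs of the mitochondrial genome, which code for core subunits of oxidative phosphorylation. Dividing progenitors of the embryonic brain make ribosomes at a high rate, and many cytosolic ribosomal protein mRNAs begin with a 5′ terminal oligopyrimidine (TOP) tract, a C followed by further pyrimidines, through which mTOR signalling adjusts their translation.

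Sequence around the start site, which the choice of members did not use, was compared between the classes. RefSeq promoters of GRCm38.p6, from 250 bases before to 50 bases after the start, were matched for 36 of 42 cytosolic genes, 67 of 76 mitochondrial genes and 8833 of all genes tested. A run was counted where a C within 3 bases of the start preceded at least 5 bases of C or T. It was read on the gene's strand without regard to the bases before that C, so pyrimidines can reach further upstream. Such a run was found in 13 cytosolic promoters (36.1%), in 4 mitochondrial promoters (5.97%) and in 9.76% of the promoters of all genes tested. With that C exactly at the start, it was found in 6 cytosolic (16.7%) and 0 mitochondrial promoters, and in 2.29% of all. The windows below run from 15 bases before the start to 15 bases from it, 5′ to 3′ on the gene's strand. Capitals mark the run as counted from that C, and pyrimidines directly before it are left in lowercase. They are shown for 4 cytosolic genes that fell with age, Rpl14 (chr9:120571502-120571531, plus strand), Rpl35 (chr2:39005117-39005146, minus), Rps10 (chr17:27635230-27635259, minus) and Rps6 (chr4:86857353-86857382, minus).
Rpl14: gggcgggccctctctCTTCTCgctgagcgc
Rpl35: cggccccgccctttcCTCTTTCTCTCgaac
Rps10: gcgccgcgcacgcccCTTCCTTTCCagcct
Rps6: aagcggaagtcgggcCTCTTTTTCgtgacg
The next 3 genes also fell and hold no such run within 3 bases of the start: the cytosolic paralog Rpl7l1 (chr17:46782642-46782671, minus) and the mitochondrial genes Mrpl51 (chr6:125192185-125192214, plus) and Mrpl34 (chr8:71464911-71464940, plus).
Rpl7l1: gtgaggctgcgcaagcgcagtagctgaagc
Mrpl51: gggatgactccctaagctacctgggtaagg
Mrpl34: gaactacatttcccagaaggcattgtcaag
Of the 13 cytosolic genes with the run near the start, 5 fell with age (Rpl14, Rpl35, Rps10, Rps6 and Rps9), and of the 23 without it, 7 fell. The split depends on the annotated start: Rps26, which fell and was counted as without it, holds a run just beyond the allowed 3 bases.

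A further motif was found around the start of genes of both classes. CCGGAAG, the core bound by ETS-family factors, searched on both strands of the 300 bases, was present in 18 of 36 cytosolic and 25 of 67 mitochondrial promoters (37.3%), against 20.4% of all. The windows below show it in capitals upstream of the start of 3 mitochondrial genes that fell, Mrpl34 (chr8:71464878-71464907, plus), Mrpl51 (chr6:125192099-125192128, plus) and Mrps22 (chr9:98601680-98601709, minus).
Mrpl34: aactacagctcCCGGAAGgccccgcggcaa
Mrpl51: caggggctaaaCCGGAAGtatttgactgga
Mrps22: tgcacaaaaacctctcgagCCGGAAGttgc
Of the 18 cytosolic genes with this motif, 6 fell, and so did 6 of the 18 without it. Of the 25 mitochondrial genes with it, 7 fell, against 11 of 42 without. GCATGCGC, part of the site of NRF1, a regulator of nuclear genes for mitochondria, was in 11.9% of mitochondrial, 5.56% of cytosolic and 6.37% of all promoters. ATGGCGGC, which can overlap a start codon, was in 16.4%, 2.78% and 5.95%, and the E-box CACGTG, bound by Myc, in 7.46%, 11.1% and 11.8%. A match describes the letters in the window and does not show that a factor binds there.

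With age, every call in both classes was a fall. Of the 42 cytosolic genes, 13 fell (31.0%), 0 rose and 29 did not pass the test. Of the 76 mitochondrial genes, 22 fell (28.9%), 0 rose and 54 did not pass. Over all genes tested, 21.9% fell and 25.2% rose, so the share that fell was near the background in both classes. The cytosolic count depended on the settings. With each array centred on its median 26 fell (27.5% of all genes fell). Without a variance trend 5 fell, and the share of all genes in that fit is not given here. With an unadjusted p under 0.05 in limma, 0 cytosolic and 0 mitochondrial genes rose, and 18 and 28 fell, against 28.7% rising and 25.4% falling of all genes. The exact rank correlation with age also found 0 rising genes in each class, with 11 cytosolic and 14 mitochondrial genes falling, against 18.6% of all genes.

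Changes per gene were small. The median slope was -0.029 log2 units per day for cytosolic genes (quartiles -0.053 and -0.013) and -0.044 for mitochondrial genes (quartiles -0.071 and -0.013), beside 0.0020 for all genes tested. The slope was below 0 for 39 of 42 cytosolic and 65 of 76 mitochondrial genes, and for 5349 of 10864 genes in all. Between E11 and P0 the fitted line fell 2-fold or more for 3 cytosolic genes (Rpl14, Rpl7l1 and Rps27l) and 2 mitochondrial genes (Mrpl13 and Mrpl55), against 11.4% of all genes, and it rose by that much for 0 of either class, against 19.1%. By subunit, 6 of 22 Rpl, 7 of 20 Rps, 13 of 47 Mrpl and 9 of 29 Mrps genes fell. Among mitochondrial genes, 12 of 43 with a number that also names a bacterial ribosomal protein fell, and 10 of 33 with a number used only for mitochondrial proteins. The quadratic fit called a peak or dip within the course for 0 genes of each class, against 6.22% of all. At an unadjusted p under 0.05 in limma, with no rule on the turning point, the quadratic term passed for 0 cytosolic genes. It passed for 7 of 76 mitochondrial genes, all curving upward. The share of all genes at that threshold is not given here, so this count is not read as a trait of the class.

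**Figure D1:**
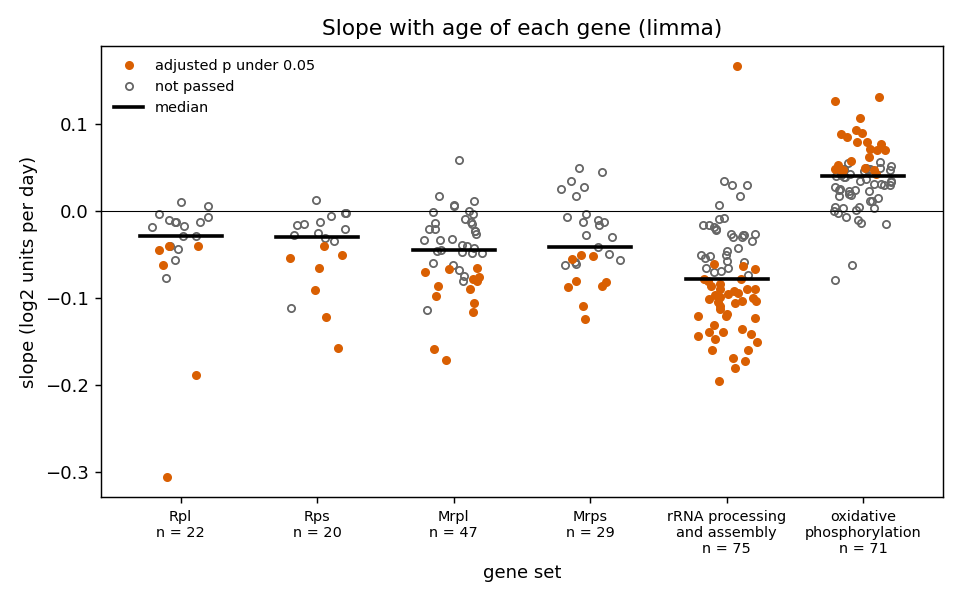
Slope of each gene with age in log2 units per day (vertical axis) for Rpl (n = 22), Rps (n = 20), Mrpl (n = 47), Mrps (n = 29), rRNA processing and assembly (n = 75) and oxidative phosphorylation genes (n = 71), with filled orange points for an adjusted p under 0.05, open points for genes that did not pass and a bar at each median. All filled points of the 4 ribosomal protein sets lie below 0, down to -0.31 for Rpl14.

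The course was not even over the ages. At E11, 39 of 42 cytosolic and 72 of 76 mitochondrial genes lay above their own mean over the arrays. Their median deviations were 0.24 and 0.36 log2 units. Over all genes, 5399 of 10864 lay above their own mean, with a median of -0.0038. At E17, 3 cytosolic and 7 mitochondrial genes were above their own mean, with median deviations of -0.16 and -0.25. Over all genes, 5269 of 10864 were above it, with a median of -0.010. E11 was the highest array for 32 cytosolic (76.2%) and 50 mitochondrial genes (65.8%), against 27.5% of all genes. E17 was the lowest for 19 (45.2%) and 31 (40.8%), against 10.8%.

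The step from E11 to E12 was downward for 36 of 42 cytosolic (median -0.19) and 73 of 76 mitochondrial genes (median -0.33). Over all genes it was downward for 5956 of 10864 (median -0.053). The step from E16 to E17 was downward for 37 cytosolic (median -0.22) and 55 mitochondrial genes (median -0.19). Most genes of the array went the same way, 6937 of 10864 (median -0.097). Between these steps, from E15 to E16, 28 of 42 cytosolic genes went up (median 0.043) and 59 of 76 mitochondrial genes went down (median -0.16). Of all 10864 genes, 5993 went up and 4871 down (median 0.031). The step from E17 to E18 was upward for 28 cytosolic and 58 mitochondrial genes, and for 5403 of 10864 genes in all. These steps set 1 array against another and have no test. From E11 to P0, the median difference was 0.33 log2 units for cytosolic and 0.39 for mitochondrial genes (E11 minus P0). These are 1.25-fold and 1.31-fold higher at E11. From E12 to P0 it was 0.092 and 0.10. Over all genes the median was -0.020 from E11 to P0 and -0.047 from E12 to P0.

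**Figure D2:**
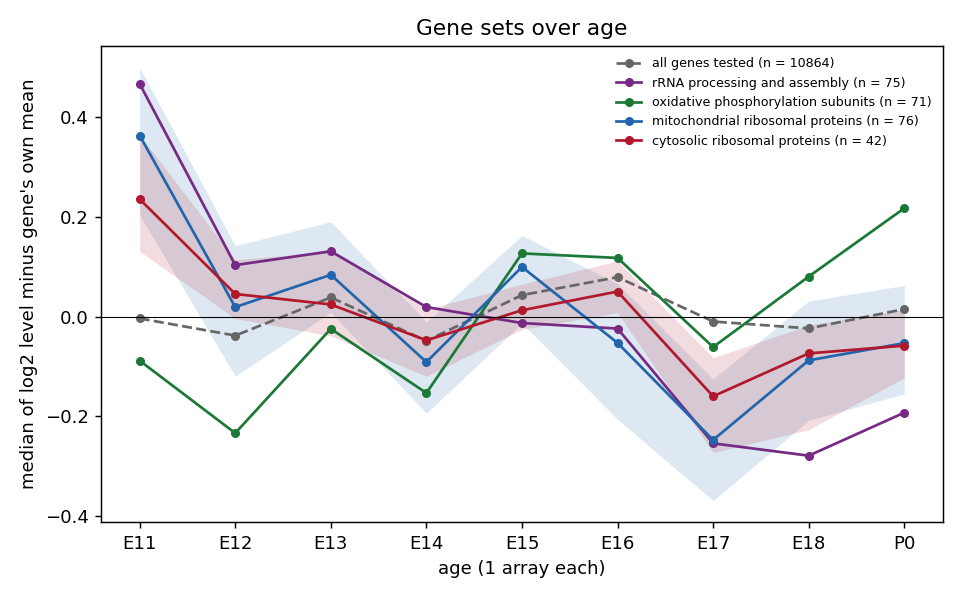
Median, over the genes of a set, of the log2 level minus the gene's own mean (vertical axis) on the array of each age (horizontal axis), for both ribosomal protein classes with quartiles shaded, the rRNA processing and assembly list, oxidative phosphorylation subunits and all genes tested (dashed). Both ribosomal protein classes are highest at E11 (0.24 and 0.36) and lowest at E17 (-0.16 and -0.25).

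Most of the calls rested on the E11 array. Without it, 5 cytosolic genes (Rpl14, Rpl7l1, Rps10, Rps27l and Rps6) and 3 mitochondrial genes (Mrpl13, Mrpl34 and Mrpl51) fell, 0 rose in each class, and 16.6% of all genes fell. The median slopes were then -0.021 for cytosolic and -0.022 for mitochondrial genes. These 5 and 3 genes were also those that fell whichever single array was left out. Mitochondrial falls numbered 13 without the E17 array and 14 without the E18 array, and leaving out any other single array gave 15 to 21. Without the E17 array, 2123 of 10864 genes fell in all. From E13 to P0 alone, 4 cytosolic and 0 mitochondrial genes fell, against 11.1% of all genes.

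**Figure D3:**
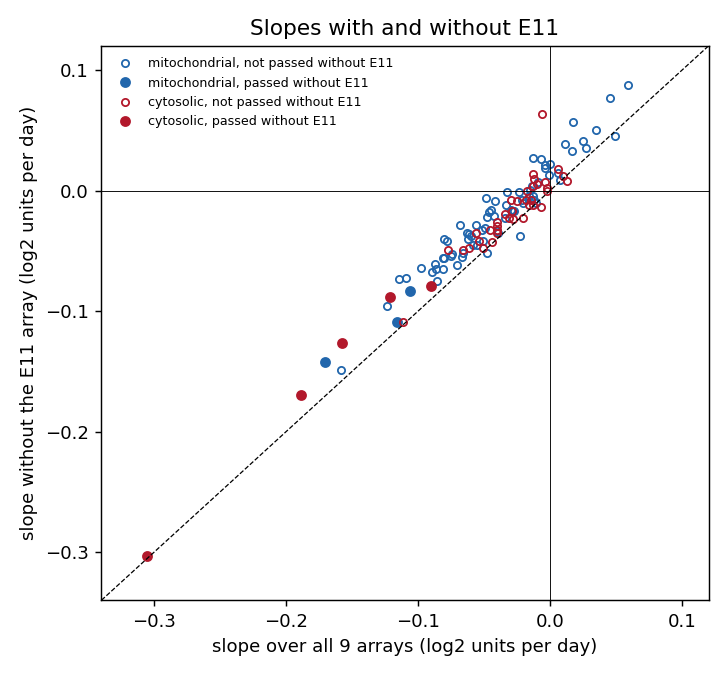
Slope over all 9 arrays (horizontal axis) against the slope without the E11 array (vertical axis), both in log2 units per day, for cytosolic (red) and mitochondrial (blue) genes, with filled points for an adjusted p under 0.05 without E11 and a dashed line where both slopes are equal. The 5 cytosolic and 3 mitochondrial filled points are at the steep end. The slope was nearer to 0 without E11 for 34 of 42 cytosolic and 58 of 76 mitochondrial genes. That share over all genes is not given here.

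Among the proteins of the large cytosolic subunit, Rpl14 fell most. Its probe set read 10.79, 10.23, 10.20, 9.98, 9.88, 8.76, 9.55, 8.17 and 8.38 from E11 to P0. The 5 arrays from E11 to E15 were all above the 4 later ones, and the level at E11 was 5.31-fold that at P0. The slope was -0.31 ± 0.043 (adjusted p = 0.00034), and -0.30 without E11. The 5 other probe sets that the annotation pairs with Rpl14 and a further name, at mean levels of 12.5 to 13.8, also fell, with slopes of only -0.059 to -0.076.

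Rpl7l1, a paralog of Rpl7 known for its part in making the large subunit, fell more evenly. It read 11.22, 10.83, 10.52, 10.45, 10.07, 10.27, 9.98, 9.72 and 9.53, a step down at every age except from E15 to E16 (slope -0.19 ± 0.020, adjusted p = 7.9e-05). A second probe set fell as well (-0.14 ± 0.027), and 1 more, at a mean level of 4.15, had a slope of opposite sign that did not pass (0.26 ± 0.15). With the mean of all its probe sets, the slope was -0.023 (adjusted p = 0.71). Its parent Rpl7 read 14.63 at E11 and 14.28 at P0 (slope -0.029 ± 0.013, adjusted p = 0.094), passing only under 3 of the alternatives.

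Rpl41, the smallest protein of the large subunit, came next in that subunit. It read 15.15, 14.86, 14.99, 14.69, 14.97, 14.59, 14.34, 14.58 and 14.79, with E17 lowest and P0 above the 3 arrays before it (slope -0.062 ± 0.022, adjusted p = 0.044). The call was lost without the E11, E12, E13, E16, E17 or E18 array, where slopes lay between -0.068 and -0.048. Of its 3 other probe sets, 2 fell (-0.20 ± 0.038 and -0.25 ± 0.047) and 1 did not pass (-0.032 ± 0.018).

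The remaining large-subunit genes that fell did so by little: Rpl35 by 0.045, Rpl22 by 0.041 and Rpl8 by 0.040 log2 units per day. The paralogs Rpl22 and Rpl22l1, 2 forms of the same large-subunit protein, were both measured. Rpl22 went from 14.50 at E11 to 14.14 at P0 (slope -0.041 ± 0.012, adjusted p = 0.021) and did not pass without E11 (slope -0.033), and 1 of its other probe sets had a slope of opposite sign that did not pass (0.016 ± 0.021). Rpl22l1 read 13.14 at E11 and 12.78 at P0, between 12.65 and 13.10 on the arrays between (slope -0.012 ± 0.021, adjusted p = 0.65). Whether the paralogs' slopes differ was not tested.

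In the small cytosolic subunit, Rps27l fell most. It is a paralog of Rps27 and known as a target of p53. It read 11.60, 11.05, 10.90, 10.75, 10.55, 10.49, 10.28, 10.40 and 10.10, so the level at E11 was 2.83-fold that at P0 (slope -0.16 ± 0.022, adjusted p = 0.00031). Both of its other probe sets fell at a like rate (-0.15 ± 0.025 and -0.16 ± 0.033). The single-name probe set of the parent Rps27 read at most 2.93 on every array and was below the filter, so the pair could not be set side by side.

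Rps6, the small-subunit protein phosphorylated by the S6 kinases, read 9.35, 8.71, 8.69, 8.54, 8.55, 8.60, 8.18, 8.17 and 8.17. The E11 array stood above a plateau from E12 to E16 and a lower one from E17 on (slope -0.12 ± 0.025, adjusted p = 0.0032, and -0.088 without E11). The annotation pairs 8 further probe sets with Rps6 and another name. The 4 brightest, at mean levels of 14.2 to 15.5, had slopes between -0.029 and -0.0088 that did not pass, and 2 dimmer ones fell (-0.058 ± 0.016 and -0.069 ± 0.022).

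Rps10, also of the small subunit, read 13.63, 13.43, 13.37, 13.02, 13.27, 13.19, 12.82, 12.67 and 13.08 (slope -0.091 ± 0.022, adjusted p = 0.0075), and its 5 other probe sets all fell (-0.063 to -0.16). The other falling small-subunit genes were Rps26, Rps15, Rps9 and Rps3, with slopes from -0.066 to -0.040. The paralogs Rps4x and Rps4l, which code for forms of 1 small-subunit protein, did not pass. Rps4x stayed between 14.65 and 14.84 (slope -0.015 ± 0.010, adjusted p = 0.25), while Rps4l ranged from 7.80 to 8.95 with no order in age (slope -0.0065 ± 0.054, adjusted p = 0.93). Some bright probe sets varied little between arrays, such as those of Rps7, between 14.76 and 14.88 on all 9 arrays (slope -0.0027 ± 0.0092), and Rps29, between 15.20 and 15.42 (slope 0.013 ± 0.011, adjusted p = 0.35). These readings lie near the top of the range, where the highest mean level of any gene was 15.46, and dimmer probe sets of some cytosolic genes fell more steeply than the brightest. For Rps24 the probe set at a mean level of 8.25 had a slope of -0.19 ± 0.024, against -0.031 ± 0.019 at 13.38, and for Rps9 the one at 6.76 had -0.19 ± 0.038, against -0.051 ± 0.017 at 13.26, while another Rps9 probe set, at 8.95, had -0.011 ± 0.029. Whether bright probe sets understate a change was not tested.

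**Figure D4:**
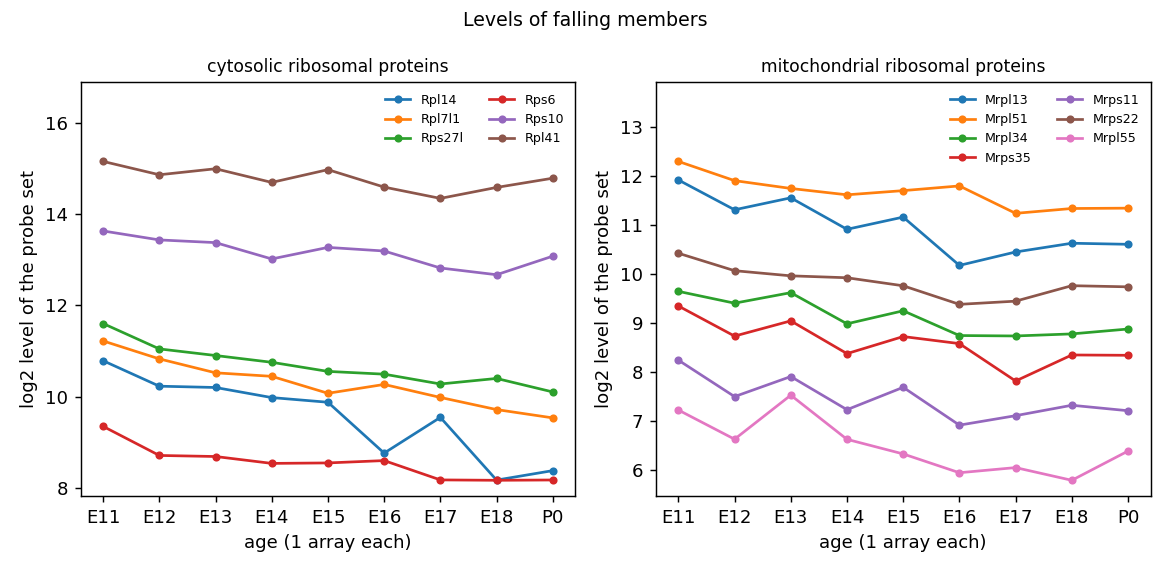
Log2 level of the probe set (vertical axis) on the array of each age for cytosolic (left) and mitochondrial (right) genes that fell, 1 line per gene. Rpl14 goes from 10.79 at E11 to 8.38 at P0 and Mrpl13 from 11.92 to 10.61, and most lines are highest at E11.

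Among the proteins of the large mitochondrial subunit, Mrpl13 fell most. It read 11.92, 11.32, 11.56, 10.92, 11.17, 10.18, 10.45, 10.63 and 10.61, and the 5 arrays from E11 to E15 were all above the 4 later ones (slope -0.17 ± 0.038, adjusted p = 0.0046). Its 3 other probe sets fell as well, with slopes from -0.15 to -0.13. Mrpl34 read 9.65, 9.41, 9.62, 8.99, 9.25, 8.75, 8.74, 8.78 and 8.88, again with every array up to E15 above every later one (slope -0.12 ± 0.027, adjusted p = 0.0058). Mrpl51 read 12.30, 11.91, 11.75, 11.62, 11.71, 11.80, 11.24, 11.34 and 11.35, where the 3 last arrays were the lowest (slope -0.11 ± 0.022, adjusted p = 0.0030).

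Mrpl55, a large-subunit protein with no bacterial counterpart by its number, had the second steepest slope of the class and wide scatter. It read 7.23, 6.63, 7.53, 6.63, 6.33, 5.95, 6.05, 5.79 and 6.39, highest at E13 (slope -0.16 ± 0.048, adjusted p = 0.021). The call was lost without the E11 (slope -0.15) or the E18 array (slope -0.14). The other 9 falling large-subunit genes had slopes from -0.098 (Mrpl35) to -0.066 (Mrpl18).

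In the small mitochondrial subunit, Mrps35, Mrps11 and Mrps22 had the steepest falls. Mrps35 read 9.35, 8.74, 9.05, 8.38, 8.73, 8.58, 7.82, 8.35 and 8.34, with E17 lowest (slope -0.12 ± 0.037, adjusted p = 0.019), and the call was lost without E11 (slope -0.096). Mrps11 read 8.24, 7.50, 7.91, 7.23, 7.69, 6.92, 7.11, 7.32 and 7.21, with E16 lowest (slope -0.11 ± 0.039, adjusted p = 0.038). That call was lost without the E11 (slope -0.073), E13 (-0.10) or E17 array (-0.10). Mrps22 read 10.43, 10.07, 9.97, 9.93, 9.76, 9.38, 9.45, 9.77 and 9.74, going down to E16 and partly back (slope -0.087 ± 0.028, adjusted p = 0.026), and was lost without the E11 (slope -0.061), E12 (-0.089) or E17 array (-0.079).

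The other 6 falling small-subunit genes had slopes from -0.086 (Mrps28) to -0.051 (Mrps2). The highest slopes of the class were those of Mrpl1 (0.059 ± 0.031, adjusted p = 0.14), which read 7.35 at both E11 and P0, and of Mrps26 (0.049 ± 0.025, adjusted p = 0.13), which read 9.41 at E11 and 9.72 at P0. Neither passed the test. A second Mrpl1 probe set, at a mean level of 7.23 against 7.32, fell (-0.098 ± 0.033, adjusted p = 0.035), so the 2 disagree in sign.

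**Figure D5:**
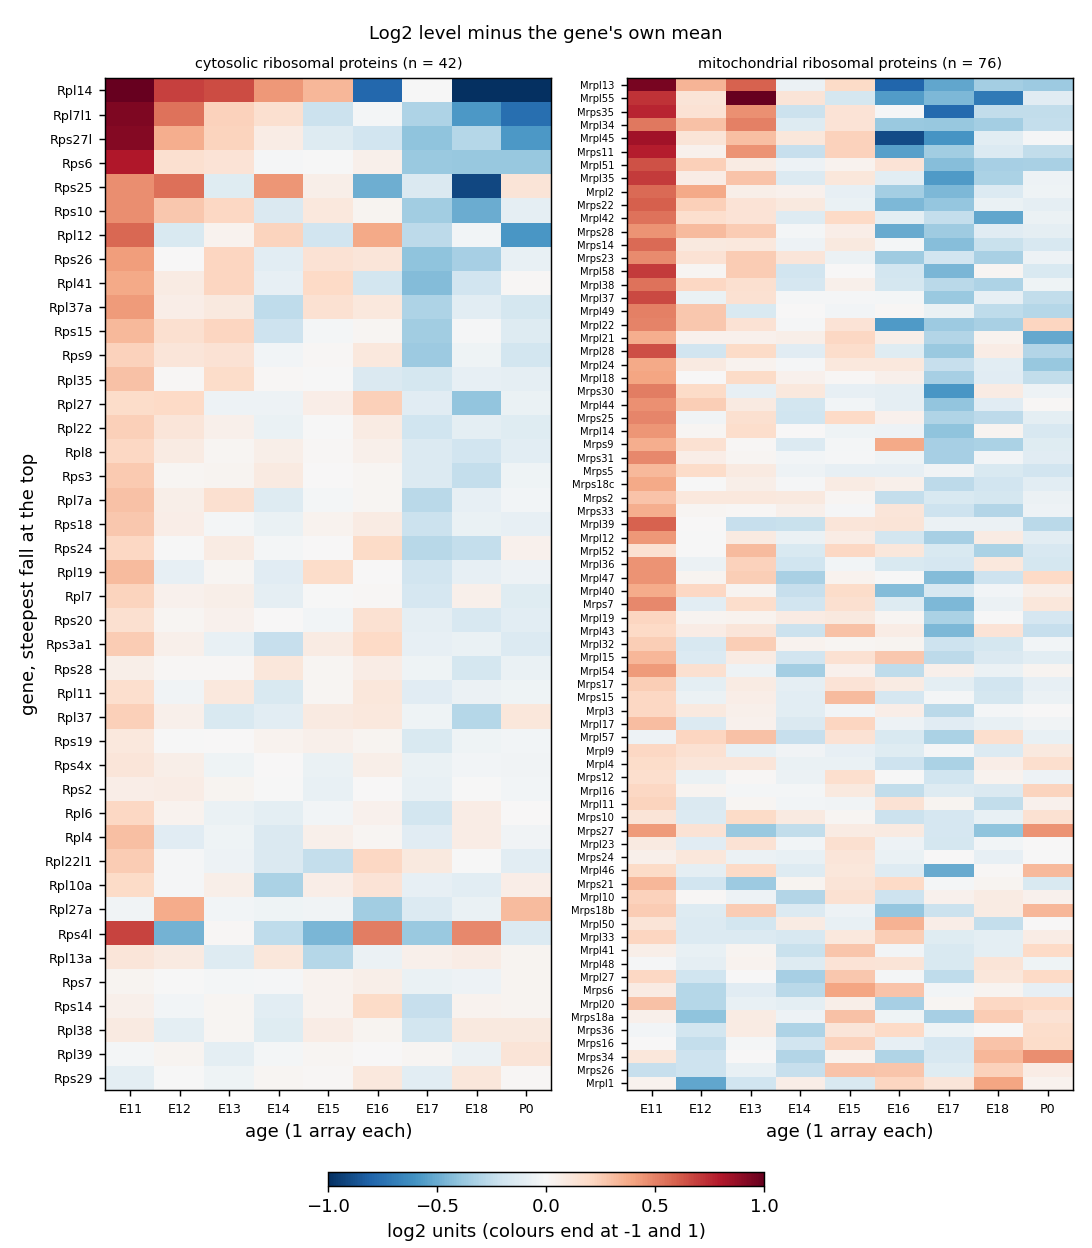
Log2 level minus the gene's own mean over the 9 arrays, as colour, for the 42 cytosolic (left) and 76 mitochondrial (right) genes in rows, steepest fall at the top, and the 9 ages in columns. The colours end at -1 and 1 log2 units, which the Rpl14 row exceeds. E11 is the reddest column of both panels, with 39 of 42 and 72 of 76 genes above their own mean, beside 5399 of 10864 genes in all.

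The genes that share the prefix without coding for ribosomal proteins were called in both directions. Rps6ka6, which codes for a ribosomal S6 kinase of the RSK family, read 11.97, 10.90, 10.89, 10.70, 9.89, 9.95, 9.78, 9.68 and 9.29 and fell (slope -0.29 ± 0.034, adjusted p = 0.00012). Rps6ka5, which codes for the kinase MSK1, read 7.20, 7.73, 8.38, 8.84, 8.58, 8.50, 9.02, 9.0 and 8.98 and rose (slope 0.20 ± 0.040, adjusted p = 0.0027). Rps6ka3 fell (slope -0.11 ± 0.035, adjusted p = 0.027), and the other 3 did not pass.

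Ribosomal protein genes of other names were few. Of Rplp0, Rplp2, Rpsa and Fau, 0 of 4 passed, with slopes from -0.038 to -0.000052. At an unadjusted p under 0.05 in limma, Rplp2 and Rpsa were below 0. Of the mitochondrial genes named otherwise, 1 of 4 fell, Ptcd3 (slope -0.076 ± 0.023, adjusted p = 0.020), and it did not pass without E11 (slope -0.048).

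Falls were common among genes for making ribosomes. Of 75 genes for rRNA processing and ribosome assembly, 42 fell and 1 rose, with a median slope of -0.079, against 21.9% falling and 25.2% rising of all genes. Nolc1, a nucleolar phosphoprotein, went from 10.56 to 8.73 (slope -0.20 ± 0.023, adjusted p = 0.00013), and Dkc1, the pseudouridine synthase dyskerin, from 10.60 to 8.79 (slope -0.18 ± 0.028, adjusted p = 0.00061). Gnl3l, a nucleolar GTPase, rose from 9.30 to 10.74 (slope 0.17 ± 0.017, adjusted p = 6.3e-05), though not with the mean of all its probe sets (slope 0.080). Without E11, 30 of the 75 fell and 1 rose, while of all 10864 genes 1798 fell and 2219 rose. Of 15 genes for RNA polymerase I, which transcribes ribosomal RNA, 7 fell and 0 rose (median slope -0.080), led by Taf1d (-0.24 ± 0.025) and the subunit gene Polr1b (-0.23 ± 0.047), and 4 fell without E11. A difference between these lists and the ribosomal proteins was not tested.

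Other parts of the translation apparatus were mixed. Of 42 cytosolic translation factors, 12 fell (28.6%) and 2 rose (4.76%), with a median slope of -0.025, and 7 fell without E11. Over all genes tested 21.9% fell and 25.2% rose, and without E11 1798 of 10864 fell. The rising ones were Eef1a2, the elongation factor form of neurons and muscle, which went from 7.56 to 11.30 (slope 0.41 ± 0.070), and Eef2k, the kinase that inhibits elongation factor 2 (0.27 ± 0.058), and the steepest falls were those of the release factor Gspt1 (-0.14 ± 0.019) and of Eef1d (-0.13 ± 0.017). Of 20 cytosolic tRNA synthetases, 8 fell (40%) and 1 rose (5%), with Iars (-0.13 ± 0.020) and Vars (-0.11 ± 0.033) falling and Nars rising (0.099 ± 0.027). The fall of Vars was lost without the E12 (slope -0.083) or E18 array (-0.097), the rise of Nars with the mean of its probe sets (0.019), and 4 synthetases fell without E11.

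Of 32 mitochondrial translation and assembly factors, 6 fell and 0 rose (median slope -0.049), and 2 fell without E11. The share that fell, 18.8%, was below the 21.9% of all genes. The steepest were Tfb1m, which methylates the small mitochondrial rRNA (-0.17 ± 0.032), and the ribosome recycling factor Mrrf (-0.11 ± 0.025). Of 15 mitochondrial tRNA synthetases, Iars2 alone fell (-0.074 ± 0.028), a call lost without any of 6 single arrays, E11, E14, E15, E17, E18 or P0. mTOR and Myc help set the rate of ribosome synthesis, and the list of 29 genes for their control also holds coactivators of mitochondrial biogenesis. Of these 29, 7 fell (24.1%) and 4 rose (13.8%). Of all genes 21.9% fell and 25.2% rose. Besides the S6 kinases above, Eif4ebp1, the repressor of cap-dependent translation that mTOR inactivates, fell (-0.23 ± 0.052), while the coactivators of mitochondrial biogenesis Ppargc1b (0.38 ± 0.057) and Ppargc1a (0.25 ± 0.034) rose.

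The nuclear subunits of oxidative phosphorylation, most of which join proteins made on mitochondrial ribosomes, were called in the other direction. Of 71 genes, 22 rose (31.0%, near the 25.2% of all genes) and 0 fell, with a median slope of 0.039, beside 0 rising and 22 falling genes of 76 for the mitochondrial ribosomal proteins. Atp5g1, a subunit of the ATP synthase, went from 10.34 to 11.36 (slope 0.13 ± 0.036), and Ndufa5, a subunit of complex I, from 12.36 to 13.28 (0.13 ± 0.030). Without E11, 16 of the 71 rose, beside 2219 of 10864 genes in all. From E13 to P0 alone 3 of the 71 rose, a lower share than the 1530 of 10864 genes in all. The lists were read by counts and medians, with no test of the difference.

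The probe sets limit how far 1 gene can be read. For 33 of the 42 cytosolic genes the brightest probe set named with 1 gene is of a design (_x_at, _s_at or _a_at) that can match several transcripts. Of these 10 fell, against 3 of the other 9. A second probe set was available for 20 cytosolic genes, and of 46 such probe sets 6, from 5 genes, had a slope of opposite sign. For mitochondrial genes it was 8 of 53 probe sets, from 7 genes of 31. In neither class was a gene called in both directions. Rps20 was called as rising (slope 0.075 ± 0.025, adjusted p = 0.031) with the mean of all its probe sets, since its 2 dimmest, at mean levels of 6.59 and 5.17, rose (0.14 ± 0.039 and 0.22 ± 0.066) while both at 14.33 and above did not pass. Another 99 probe sets named with several genes, at least 1 of them cytosolic ribosomal, were left out of the counts above. Of these, 25 fell and 3 rose, with a median slope of -0.031, and of 3 mitochondrial ones 0 fell and 0 rose. For 9 of the 42 cytosolic genes a probe set named with several genes read higher than the one used. These included 7 of the 8 genes at a mean level of log2 10 or under, with Rpl14 and Rps6 among them.

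Markers of other cell types and of cycling cells moved over the same ages. All 10 markers of cycling cells fell, and their median level went from 11.60 at E11 through 10.03 at E14 to 8.35 at P0. Of 6 red cell markers, 4 fell, with a median level of 12.24 at E11 and 4.15 at P0. The 4 were Slc4a1 and the embryonic globins Hbb-bh1, Hba-x and Hbb-y, which are also replaced by later globins during development, and Alas2 and Hbb-b2 did not pass. Of 11 markers of bulb neurons 8 rose and 1 fell, and 9 of 10 meningeal and 7 of 7 microglial markers rose. Of a longer list of markers of mature olfactory sensory neurons, only 3 passed the filter, at mean levels from 3.79 to 6.94, and all 3 rose. Of 6 endothelial markers 2 rose and 1 fell. Each marker count covers only those listed genes that were tested. The female-specific RNA Xist read between 13.42 and 13.98 on the arrays of E11, E12, E15 and P0, and at most 2.76 on the others. Those with high Xist were taken as female, with no other marker of sex used. The median over all probe sets lay between 4.08 and 4.23 on the 9 arrays, and the 3′ minus 5′ difference of the actin control probe sets, a sign of RNA quality, between 1.48 and 1.90, with 1.68 at E11. That of Gapdh was lowest at E11 (1.55) and highest at E14 (2.12), E17 (2.07) and E18 (2.04). At those ages the median deviation of both ribosomal protein classes was below 0, as it was at P0, where Gapdh gave 1.87. The actin difference had another order, with 1.62 at E14, 1.71 at E17 and 1.90 at E18, beside 1.82 at E15 and 1.80 at E16. The part of cell composition or of RNA quality in the slopes of the ribosomal protein genes was not tested. With sex as read from Xist in the fit, 8 cytosolic and 15 mitochondrial genes fell. The share of all genes in that fit is not given here.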

How the data were processed

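RNA was taken up in TRIzol, passed through 2 rounds of amplification and biotinylated for Affymetrix arrays, per the labels' protocols. The authors deposited log2 levels from GCRMA, which corrects background by probe sequence, per the submitters' processing notes (version not given in the sources used here). Probe sets with several gene names or none and 64 controls were left out, and the probe set of highest mean was kept per gene. Ages (P0 as day 19) were fitted with limma 3.58.1 in R 4.3.3 (variance trend, two-sided, Benjamini-Hochberg over 10864 genes, threshold 0.05). No scaling was added. The fit left 7 residual degrees of freedom. The number of arrays limits the precision.

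Genes named were the 3 steepest calls per set, paralogs with parents, and 2 per direction from each list. Rps6ka3, Rps7, Rps20, Rps24, Rps29, Mrpl1, Mrpl51 and Mrps26 were added after their values were seen, and so were genes named for the end of a range. Members and lists were chosen with earlier results of these data known. The procedure was tested on simulated data.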

Additional observations from a re-analysis of the deposited data

How the results depend on the processing

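With single arrays left out, cytosolic falls ranged from 5 to 15 and mitochondrial falls from 3 to 21. From E13 to P0 alone they numbered 4 and 0. The count over all 10864 genes moved as well. It was 2382 falls on all arrays, 1798 without E11, 2123 without E17 and 1209 from E13 to P0 alone. For median centring and the rank correlation the share of all genes is given above. The other counts of falls that follow are given without it. Cytosolic falls were 26 with median centring, 6 with no filter, 5 without the variance trend and 8 with sex in the fit, and the exact rank correlation gave 14 mitochondrial falls. The cytosolic median slope was -0.047 with median centring and -0.062 without _x_at, _s_at and _a_at probe sets, where 8 of 18 genes fell and 1 rose. With the mean of all probe sets 1 cytosolic gene rose, Rps20, which was also the 1 above. With the 6 other genes of the prefix counted in, 1 rose, the kinase gene Rps6ka5. Among probe sets with several names, chosen after seeing the data, 25 fell and 3 rose. A mitochondrial peak or dip was called for 1 gene with median centring and 1 with P0 at day 20. The cause of these differences was not tested. No paired analysis was possible because each age has 1 array.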
